A study of Rattus norvegicus with 5 samples.

Results

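The 31 genes described here make up the machinery of fast and slow inhibition by GABA and glycine and of the chloride gradient on which it depends. They are 11 subunits of the GABA-A receptor, 2 of the GABA-B receptor and 5 of the glycine receptor, 2 postsynaptic scaffold genes, 4 genes of transmitter synthesis, vesicular loading and breakdown, 3 plasma membrane transporters, and 4 chloride transporters and their kinases. Members were found by gene symbol, with no measured value in the rule, and all 31 of 31 symbols were found among the 17321 rows of the count table. RNA was sequenced from Sprague Dawley rats, from lumbar dorsal horn at L4-L6, collected 9 days after an operation. In 3 libraries that operation was CCI, an abbreviation that usually stands for a chronic constriction injury to a nerve and serves as a model of neuropathic pain, and in 2 libraries it was SHAM. The labels name no other treatment or allele and give neither age nor sex. Nor is it stated that the libraries came from different animals, so every p-value here measures the spread between libraries, which may be technical in part. Values per library are given in the order of library number, CCI 1, 2 and 3 and then SHAM 1 and 2.

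GABA and glycine are the fast inhibitory transmitters of the spinal cord, and both open chloride channels on the receiving neuron. Whether the opening inhibits depends on a low chloride concentration inside that neuron, which the exporter KCC2 maintains. In the dorsal horn, inhibitory interneurons restrain the flow of pain signals, and a loss of this restraint, through fewer synapses, weaker transmitter supply or a failing chloride gradient, has long been studied as a component of neuropathic pain in rodents.

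Each library held between 20053353 and 23673198 estimated counts in all, and 13478 genes had enough of them to be tested. Ribosomal RNA rows took 16.0% of the counts in CCI 3 and 2.18% to 2.71% in the other libraries. Every marker of inhibitory and excitatory dorsal horn neurons in the table had counts in at least 1 library. Levels are given as CPM, counts relative to the library's total after scaling between libraries. Markers of motor neurons, which lie in the ventral horn, had counts as well and stood apart by group. The 7 motor neuron markers summed to 355, 126 and 226 CPM in the CCI libraries, against 789 and 539 CPM in the SHAM libraries, and 5 of the 7 were called lower in CCI. That count was 4 without CCI 2, 2 without CCI 3 and 0 without SHAM 1 or without SHAM 2. Summed microglial markers were 543, 618 and 529 CPM in the CCI libraries, against 181 and 218 CPM in the SHAM libraries. The 11 markers of inhibitory dorsal horn neurons summed to 207, 213 and 199.8 CPM in the CCI libraries, against 174 and 206 CPM in the SHAM libraries, which overlap. Of these 11, 9 had a log2 fold change above 0, with a median of 0.27. So had 6 of 7 markers of excitatory dorsal horn neurons, with a median of 0.36, and 6999 of 13478 tested genes, with a median of 0.01. The mean log2 of CPM plus 1 over the 11 inhibitory markers was 3.83, 3.87 and 3.87 in the CCI libraries. It was 3.47 in SHAM 1 and 3.85 in SHAM 2. Pvalb was called lower in CCI (log2 fold change -0.65, SE 0.14, adjusted p = 0.0402), a call lost without CCI 2, CCI 3, SHAM 1 or SHAM 2, and none was called higher by edgeR's quasi-likelihood test, against 1 by DESeq2 and 1 by the likelihood ratio test. Pdyn, which encodes dynorphin, had the largest estimate of the 11, without overlap (log2 fold change 0.99, SE 0.26, adjusted p = 0.117). The 8 pan-neuronal markers summed to 5827, 5438 and 5394 CPM in the CCI libraries, against 6737 and 6439.8 CPM in the SHAM libraries, with none called (1 lower without CCI 1 and 1 lower by DESeq2). All 5 oligodendrocyte markers were lower in every CCI library, at log2 fold changes of -0.43 to -0.27, none of them called. They summed to 29426, 25502 and 24504 CPM in the CCI libraries, against 34959 and 34330.3 CPM in the SHAM libraries. Each had an unadjusted p below 0.05, and the smallest adjusted p was 0.101. Of all tested genes, 18.1% were lower in every CCI library than in either SHAM library, and 6.32% were lower at an unadjusted p below 0.05. The part of the oligodendrocyte markers in the lower values of Glra1, Glrb, Slc6a9 and Stk39 below was not tested. Schwann cell markers, which mark nerve root, summed to 165, 378 and 779 CPM in the CCI libraries, against 156 and 169.6 CPM in the SHAM libraries, and fibroblast markers to 146, 803 and 671 CPM in the CCI libraries, against 155 and 189.8 CPM in the SHAM libraries. CCI 2 and CCI 3 were high in both of these lists, in which none of 9 and none of 6 markers was called. Without CCI 1, 3 of the 9 and 4 of the 6 were called higher. Without CCI 2, it was 1 of the 8 Schwann cell markers then tested and 0 of the 6. In bulk tissue of this kind, fewer cells of a type and less RNA per cell cannot be told apart.

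None of the 31 inhibition genes was called different between CCI and SHAM. A call required an adjusted p of at most 0.05 from edgeR's quasi-likelihood test, adjusted by Benjamini-Hochberg across every gene tested, and a fold of at least 1.5. By that rule 2.85% of all tested genes were called, 2.59% higher and 0.260% lower in CCI (384 genes in all, against 61 without SHAM 1, 78 without SHAM 2 and 763 without CCI 1). All 31 genes passed the filter on low counts, so the tested set is the whole set. Dropping the minimum fold added no member, although it raised the background to 3.0%. At an unadjusted p below 0.05 there were 5 members (16.1%), 1 higher and 4 lower in CCI, beside 16.0% of all tested genes, 9.65% higher and 6.32% lower. The likelihood ratio test and DESeq2 also called no member under the same rule, with 4.79% and 4.56% of all tested genes called.

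The fitted changes were small and evenly split in sign. The log2 fold change, CCI over SHAM, was above 0 in 16 members and below 0 in 15, with a median of 0.01, equal at this rounding to the 0.01 of all tested genes. Across members it ran from -0.43 for Slc6a9 to 0.42 for Gabre and Glra3, and in 19 members it lay between -0.20 and 0.20. For 21 members (67.7%) the 95% interval of the fold change lay wholly inside 1.5-fold in either direction, as it did for 58.7% of all tested genes. The interval excluded 0 in the same 5 members that had an unadjusted p below 0.05, namely Slc6a9, Glra1, Glra3, Glrb and Stk39. In 13 members (41.9%) the CPM values of the CCI and SHAM libraries did not overlap, 5 higher and 8 lower in CCI, beside 36.7% of all tested genes, 18.6% higher and 18.1% lower. Taken over both directions, the share of members without overlap lies near that of all genes. By direction more members were lower than higher, whereas all tested genes were split almost evenly. This difference by direction was not tested.

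**Figure D1:**
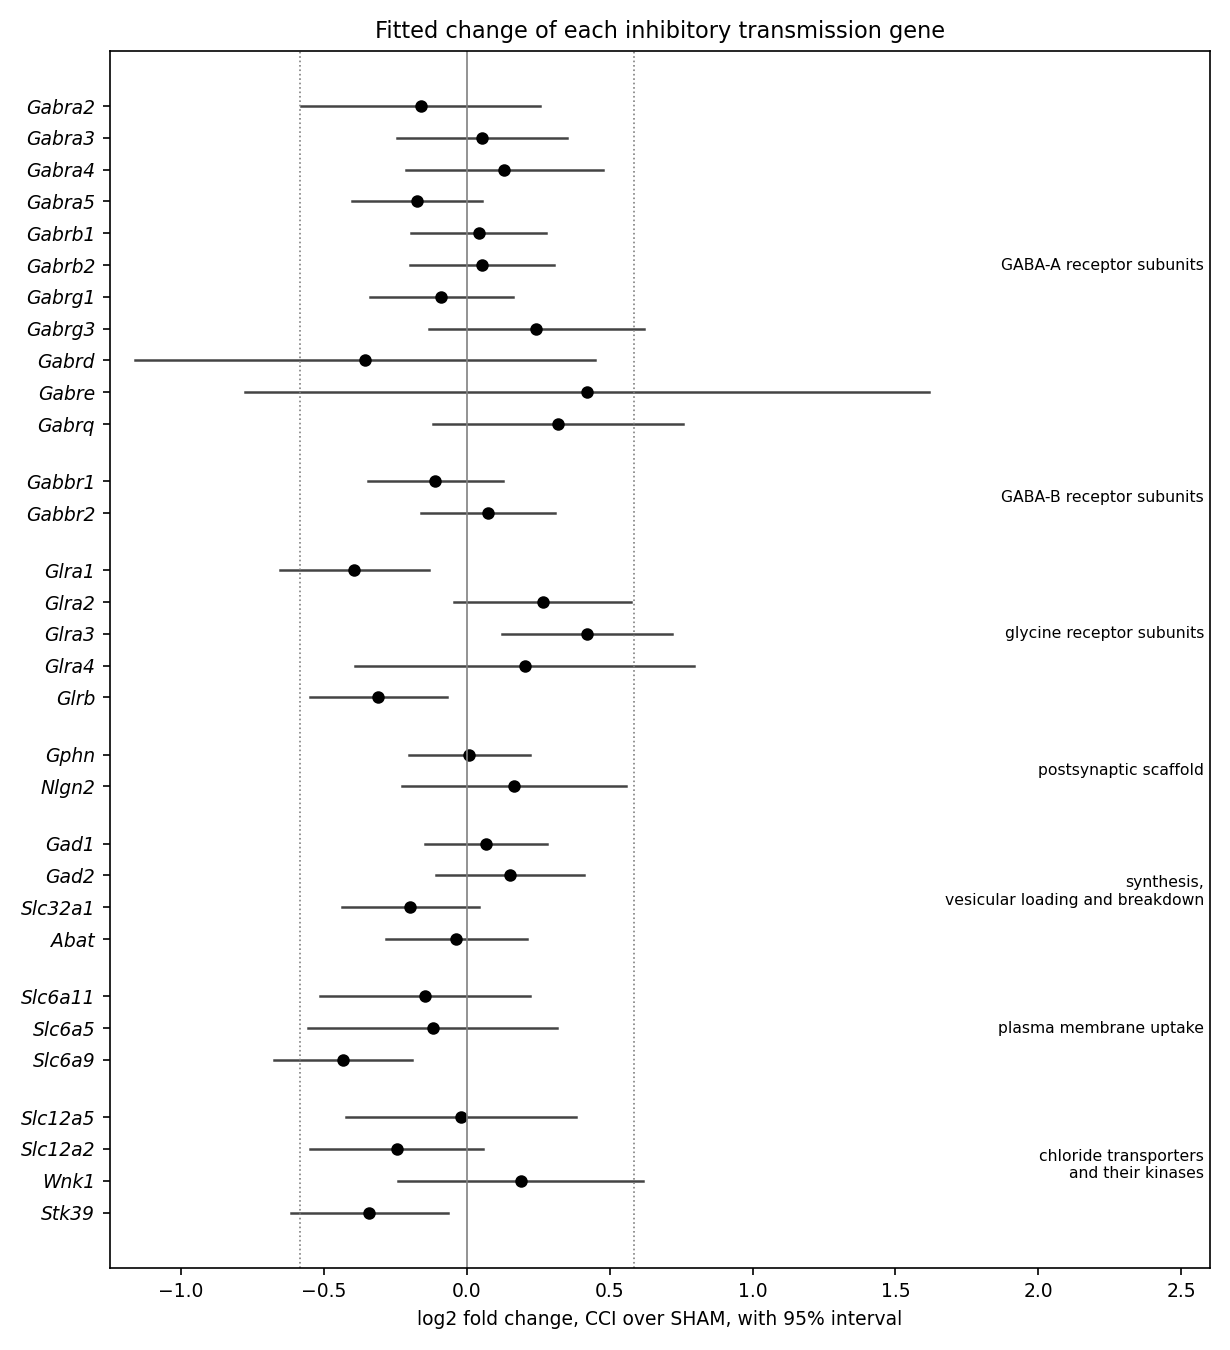
Log2 fold change of each of the 31 genes, CCI over SHAM (3 and 2 libraries), as a point with its 95% interval from edgeR's quasi-likelihood fit, grouped by role; dotted lines mark 1.5-fold. No point lies beyond a dotted line, and the intervals of Glra1, Glrb, Slc6a9 and Stk39 lie below 0 while that of Glra3 lies above it.

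Among the GABA-A receptor subunits, which assemble in fives around a chloride pore, none of 11 passed the test. The adjusted p ran from 0.431 for Gabra5 to 0.875 for Gabrb1, and the median log2 fold change was 0.05. Gabra2 encodes the subunit through which benzodiazepines relieve experimental pain in mouse spinal cord. Its level was 71.1, 60.6 and 92.2 CPM in the CCI libraries, against 91.3 and 75.5 CPM in the SHAM libraries. The groups overlapped, with CCI 3 the highest and CCI 2 the lowest of the 5 libraries (log2 fold change -0.16, SE 0.18, adjusted p = 0.692). Gabra3, which shares that spinal role in mice, was 66.7 ± 9.63 CPM in CCI (SD, n = 3) and 64.3 ± 1.13 CPM in SHAM (SD, n = 2) (log2 fold change 0.05, SE 0.13, adjusted p = 0.87).

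Gabra5, whose subunit is found largely outside synapses, had the smallest p of the GABA-A subunits. Its level was 55.7, 52.9 and 54.8 CPM in the CCI libraries, against 64.5 and 58.6 CPM in the SHAM libraries. All CCI libraries lay below both SHAM libraries, by an amount short of the threshold (log2 fold change -0.18, SE 0.10, adjusted p = 0.431). Gabrq, the theta subunit, was next by p and had the opposite sign. It was at 6.11, 6.95 and 5.89 CPM in the CCI libraries, against 5.09 and 5.05 CPM in the SHAM libraries, again without overlap and without passing (log2 fold change 0.32, SE 0.19, adjusted p = 0.453).

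Gabrb1, Gabrb2 and Gabrg1, which encode beta and gamma subunits, had estimates near 0. Gabrb1 had a log2 fold change of 0.04 (95% interval -0.20 to 0.28), Gabrb2 one of 0.05 (-0.20 to 0.30) and Gabrg1 one of -0.09 (-0.34 to 0.16). Gabra4 (0.13, SE 0.15) and Gabrg3 (0.24, SE 0.17) had positive values within 2 standard errors of 0. The rarest subunits gave the widest intervals. Gabrd, the delta subunit of extrasynaptic receptors, rested on 16, 23 and 16 counts in the CCI libraries, against 24 and 21 in the SHAM libraries, and Gabre, the epsilon subunit, on 18, 45 and 55 counts in the CCI libraries, against 23 and 34 in the SHAM libraries, after rounding. The Gabre interval, -0.78 to 1.62, holds 1.5-fold differences in both directions, and its highest CCI library was 3.5 times its lowest. Several of these genes sit side by side in the genome. In the GRCr8 gene table, Gabrb1, Gabra4, Gabra2 and Gabrg1 follow each other with at most 1 other protein-coding gene between neighbours, as do Gabre, Gabra3 and Gabrq, and Gabrg3 adjoins Gabra5. Signs were mixed in the first of these groups and in the last, where Gabrg3 stood at 0.24 and Gabra5 at -0.18, while Gabre, Gabra3 and Gabrq all had positive estimates.

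**Figure D2:**
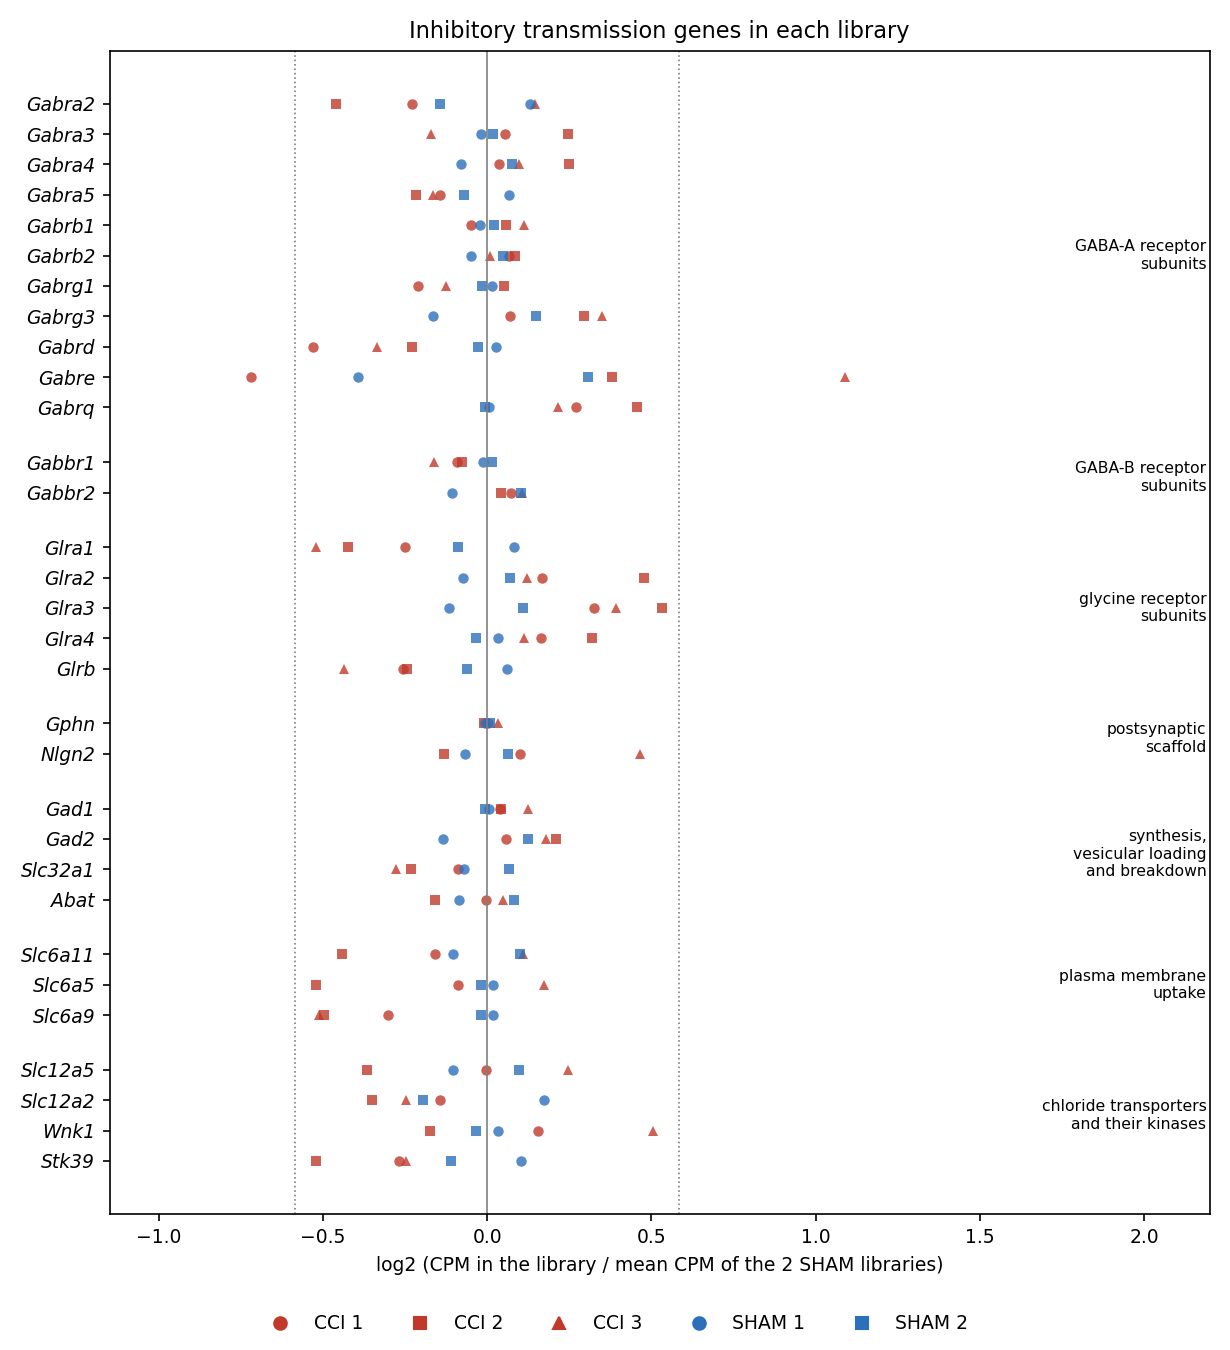
CPM of each of the 31 genes in each library, as the log2 ratio to the mean of the 2 SHAM libraries, with CCI libraries in red and SHAM libraries in blue and dotted lines at 1.5-fold. Apart from Gabre, every library of every gene lies between the dotted lines. In 7 genes CCI 2 (red squares) is the lowest and CCI 3 (red triangles) the highest library.

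The GABA-B receptor, a G protein-coupled receptor for slow inhibition, needs both of its subunits to work. Gabbr1, the subunit that binds GABA, was 971, 981 and 924 CPM in the CCI libraries, against 1025 and 1044 CPM in the SHAM libraries. Its CCI libraries all lay below its SHAM libraries, but by little (log2 fold change -0.11, SE 0.10, adjusted p = 0.63; 95% interval of the level in CCI 0.787 to 1.09 times the SHAM level). Gabbr2, the subunit that couples to the G protein, was 186, 182 and 190.1 CPM in the CCI libraries, against 164 and 189.5 CPM in the SHAM libraries, and the groups overlapped (log2 fold change 0.07, SE 0.10, adjusted p = 0.757). Both rows held estimated counts that were not whole numbers, and their values are uncertain where reads were split with other rows.

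None of the 5 glycine receptor subunits passed. The CCI and SHAM libraries did not overlap in any of them, 3 higher and 2 lower in CCI, beside 36.7% of all tested genes. Glra1 encodes the main adult alpha subunit, and mutations in it cause startle disease in humans. It was at 217, 192 and 179.6 CPM in the CCI libraries, against 273 and 242 CPM in the SHAM libraries. All CCI libraries were below both SHAM libraries (log2 fold change -0.39, SE 0.11, adjusted p = 0.126). Glrb encodes the beta subunit, which ties the receptor to the scaffold. It was at 191, 193 and 169 CPM in the CCI libraries, against 238 and 219 CPM in the SHAM libraries, likewise without overlap (log2 fold change -0.31, SE 0.11, adjusted p = 0.19).

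Glra3 lay in the opposite direction. Its subunit is concentrated in the superficial dorsal horn, and in mice it is the one through which prostaglandin E2 dampens glycine currents during inflammation. It was at 23.0, 26.5 and 24.1 CPM in the CCI libraries, against 16.9 and 19.8 CPM in the SHAM libraries, so that every CCI library exceeded both SHAM libraries (log2 fold change 0.42, SE 0.13, adjusted p = 0.158). Glra2, the main alpha subunit before birth, was 30.5, 37.8 and 29.6 CPM in the CCI libraries, against 25.9 and 28.5 CPM in the SHAM libraries, also higher in every CCI library (log2 fold change 0.26, SE 0.14, adjusted p = 0.386), and its row held counts that were not whole. Glra4, the least abundant of the class, was at 2.64, 2.94 and 2.55 CPM in the CCI libraries, against 2.41 and 2.30 CPM in the SHAM libraries (log2 fold change 0.20, SE 0.26, adjusted p = 0.735).

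On the per-length scale, which allows genes to be compared, the 4 alpha subunits were each set against their summed TMM-scaled TPM. Glra1 made up 78.4%, 73.1% and 74.7% in the CCI libraries, against 85.3% and 82.1% in the SHAM libraries. Glra3 made up 13.0%, 15.8% and 15.6% in the CCI libraries, against 8.28% and 10.4% in the SHAM libraries. The share of Glra1 was therefore lower, and that of Glra3 higher, in every CCI library than in either SHAM library. Glra2 made up 7.12%, 9.24% and 7.96% in the CCI libraries, against 5.19% and 6.23% in the SHAM libraries. These shares were chosen after the values of the single genes had been seen and are given without a test. The ratio of Glra1 to Glrb in CPM, also chosen after the values had been seen, overlapped between the groups. It was 1.13, 0.995 and 1.06 in the CCI libraries, against 1.15 and 1.11 in the SHAM libraries. Of other ratios chosen in that way, Gad2 to Gad1 overlapped too. Those of Glra3 to Glra1, Glra2 to Glra1 and Gabbr2 to Gabbr1 were higher in every CCI library than in either SHAM library. Motor neurons also carry glycine receptors, and the summed motor neuron markers given above were lower in every CCI library. Each of the 7 markers had counts in at least 1 library. The part of motor neurons in the values of Glra1 and Glrb was not tested. With the mean level of 8 pan-neuronal markers as a covariate, the log2 fold change of Glra1 was -0.22 and that of Glra3 was 0.38. The adjusted p of edgeR's quasi-likelihood test was 0.9999 for both. The covariate was the mean log2 of CPM plus 1, with CPM taken without the scaling between libraries. With that scaling, the same mean was lower in every CCI library. It was 8.38, 8.19 and 8.31 in the CCI libraries, against 8.45 and 8.48 in the SHAM libraries. The unscaled values are not given here, and the fit cannot separate a marker level that differs by group from the group.

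**Figure D3:**
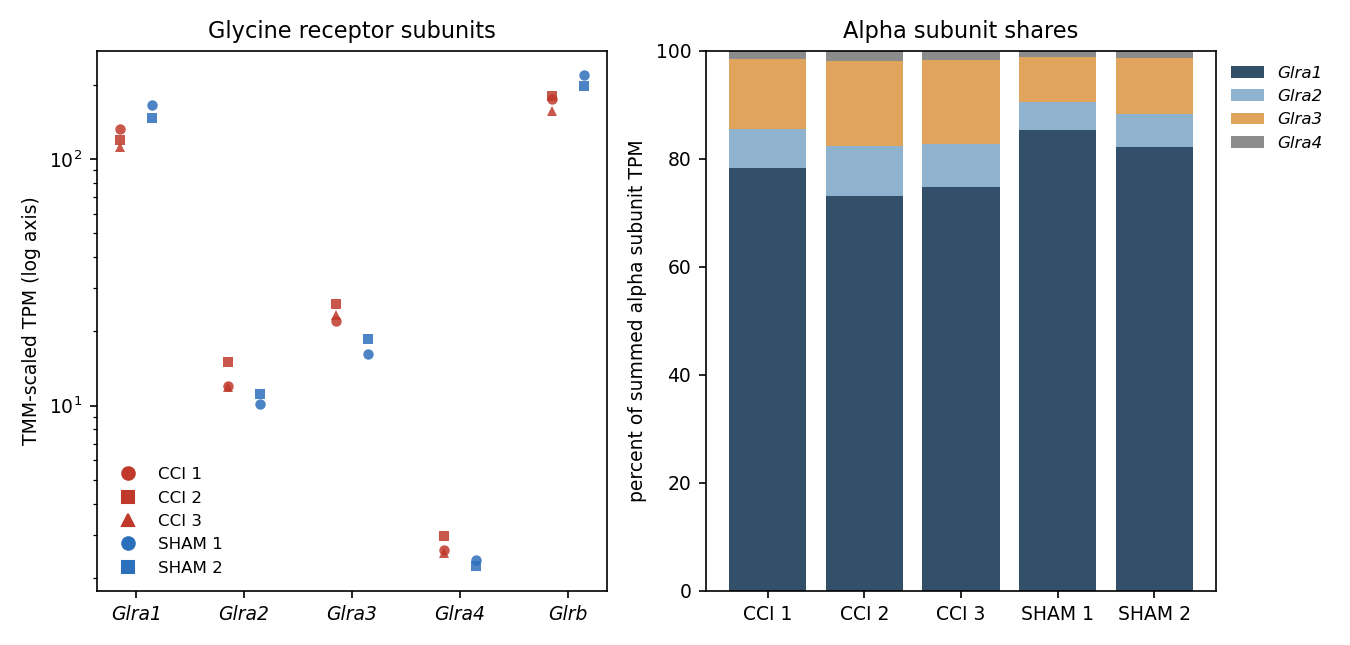
Left, TMM-scaled TPM (log axis) of the glycine receptor subunit genes in each library, CCI in red and SHAM in blue; right, the percentage of the summed alpha subunit TPM held by each alpha subunit in each library. Glra1 takes 73.1% to 78.4% in the CCI libraries and 82.1% to 85.3% in the SHAM libraries.

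Neither scaffold gene passed. Gphn encodes gephyrin, which clusters glycine and GABA-A receptors under inhibitory terminals. It was at 111, 110.0 and 113 CPM in the CCI libraries, against 110.0 and 111 CPM in the SHAM libraries, the estimate nearest 0 of any member (log2 fold change 0.01, SE 0.09, adjusted p = 0.972; level in CCI 0.870 to 1.16 times the SHAM level). Nlgn2, an adhesion protein of inhibitory synapses, was 102, 86.4 and 131 CPM in the CCI libraries, against 90.5 and 99.0 CPM in the SHAM libraries. The spread lay within the CCI group, where CCI 3 was the highest and CCI 2 the lowest of all 5 libraries (log2 fold change 0.16, SE 0.17, adjusted p = 0.664).

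Neither enzyme that makes GABA passed, and both had narrow intervals. Gad1 encodes GAD67, which supplies most of the GABA of the cell body. It was at 144, 144 and 153 CPM in the CCI libraries, against 141 and 139.8 CPM in the SHAM libraries (log2 fold change 0.07, SE 0.09, adjusted p = 0.752; level in CCI 0.904 to 1.22 times the SHAM level). The CCI libraries all lay just above the SHAM libraries. Gad2 encodes GAD65, the form associated with nerve terminals, and was at 96.7, 107 and 105 CPM in the CCI libraries, against 84.6 and 101 CPM in the SHAM libraries with overlap (log2 fold change 0.15, SE 0.11, adjusted p = 0.55; level in CCI 0.927 to 1.33 times the SHAM level).

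Slc32a1 encodes the vesicular transporter that loads both GABA and glycine. It was at 121, 109 and 106 CPM in the CCI libraries, against 123 and 135 CPM in the SHAM libraries. The CCI libraries lay below the SHAM libraries, with CCI 1 and SHAM 1 close together (log2 fold change -0.20, SE 0.11, adjusted p = 0.402). Abat, the transaminase that breaks GABA down, was 194, 174 and 201 CPM in the CCI libraries, against 183 and 206 CPM in the SHAM libraries, with overlapping groups (log2 fold change -0.04, SE 0.11, adjusted p = 0.894). The 95% intervals of all 4 genes of this class lay inside 1.5-fold.

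Of the uptake transporters, Slc6a9 came nearest to a call of all 31 genes. It encodes GlyT1, which is found mainly on astrocytes and clears glycine from synapses. Its level was 356, 311 and 308 CPM in the CCI libraries, against 444 and 434 CPM in the SHAM libraries. All 3 CCI libraries lay below both SHAM libraries, and the gap was wider than the spread within either group. The mean was 325 ± 26.9 CPM in CCI (SD, n = 3) and 439 ± 7.69 CPM in SHAM (SD, n = 2), with a log2 fold change of -0.43 (SE 0.11, 95% interval -0.67 to -0.19, adjusted p = 0.0725). The estimated difference is smaller than 1.5-fold. The adjusted p was 0.0258 with the likelihood ratio test, 0.00141 with DESeq2 and 0.0394 without CCI 1, and across all alternatives it ran from 0.00141 to 0.979. Astrocyte markers summed to 8572, 7209 and 6966 CPM in the CCI libraries, against 5111 and 5014 CPM in the SHAM libraries. Each of the 6 had counts in at least 1 library. Gfap was the 1 of the 6 that was called, higher in CCI, a call lost without SHAM 1 or without SHAM 2. Gfap averaged 4191 ± 831 CPM in CCI (SD, n = 3) and 2041 ± 83.9 CPM in SHAM (SD, n = 2). The log2 fold changes of the other 5 were 0.29 for Aqp4, 0.27 for Gja1, 0.21 for Slc1a3, -0.09 for Slc1a2 and -0.43 for Aldh1l1, so the markers did not share a sign. Their part in the Slc6a9 value was not tested.

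The other carriers varied within the CCI group. Slc6a5 encodes GlyT2, the glycine transporter of glycinergic nerve endings. It was at 425, 315 and 511 CPM in the CCI libraries, against 458 and 447 CPM in the SHAM libraries. CCI 2 was the lowest and CCI 3 the highest library, with SHAM between them (log2 fold change -0.12, SE 0.19, adjusted p = 0.785; 0.05 without CCI 2). Slc6a11 encodes GAT3, a GABA transporter of astrocytes, and was at 149, 122 and 179 CPM in the CCI libraries, against 154 and 177 CPM in the SHAM libraries, in the same order (log2 fold change -0.15, SE 0.16, adjusted p = 0.685).

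Neither chloride transporter passed. Slc12a5 encodes KCC2, the neuronal exporter of chloride. It was at 428, 334 and 509.7 CPM in the CCI libraries, against 400.0 and 460.0 CPM in the SHAM libraries, so both SHAM libraries lay inside the range of the CCI libraries. The means were 424 ± 88.2 CPM in CCI (SD, n = 3) and 430.0 ± 42.4 CPM in SHAM (SD, n = 2) (log2 fold change -0.02, SE 0.17, adjusted p = 0.966), which places the level in CCI at 0.746 to 1.30 times the SHAM level with 95% confidence. The sign of the estimate is not fixed, since it was 0.13 without CCI 2 and 0.07 without SHAM 2.

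Slc12a2 encodes NKCC1, which imports chloride and is also made by glia. It was at 616, 533 and 573 CPM in the CCI libraries, against 767 and 594 CPM in the SHAM libraries. SHAM 1 was the highest library, while SHAM 2 lay within the range of the CCI libraries (log2 fold change -0.25, SE 0.13, adjusted p = 0.409). The ratio of Slc12a2 to Slc12a5 within each library, which no library scaling can alter, was 1.44, 1.60 and 1.13 in the CCI libraries, against 1.92 and 1.29 in the SHAM libraries. The mean log2 ratio was 0.46 ± 0.26 in CCI (SD, n = 3) and 0.65 ± 0.40 in SHAM (SD, n = 2). The difference was -0.20, with p = 0.5 in a two-sided exact permutation test over 10 splits, whose smallest possible p is 0.1. It was 0.09 without SHAM 1, so SHAM 1 sets its direction.

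Neither kinase of these transporters passed. Wnk1 encodes a kinase that activates Stk39. It was at 595, 473 and 759 CPM in the CCI libraries, against 547 and 522 CPM in the SHAM libraries, with CCI 3 the highest and CCI 2 the lowest library (log2 fold change 0.19, SE 0.19, adjusted p = 0.648), and its counts were not whole numbers. Stk39 encodes SPAK, which phosphorylates both transporters, turning the importer up and the exporter down. It was at 164, 138 and 167 CPM in the CCI libraries, against 213 and 183 CPM in the SHAM libraries. All CCI libraries lay below both SHAM libraries, with CCI 2 the lowest (log2 fold change -0.34, SE 0.12, adjusted p = 0.209).

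**Figure D4:**
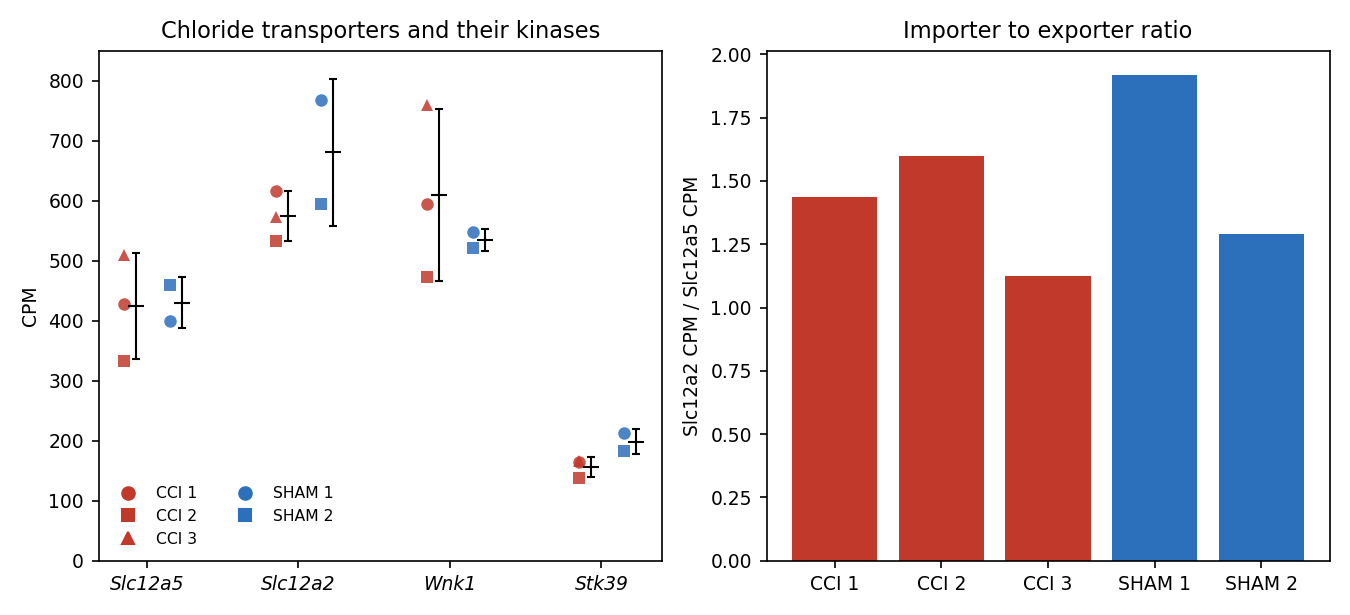
Left, CPM of the chloride transporter and kinase genes in each library, with the mean and SD of each group as black bars (3 CCI and 2 SHAM libraries); right, the ratio of Slc12a2 to Slc12a5 CPM per library. The ratio runs from 1.13 to 1.60 in the CCI libraries and stands at 1.92 and 1.29 in the SHAM libraries.

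Levels of different genes are compared on the deposited per-length scale, TPM, an abundance corrected for transcript length, after a further scaling between libraries. Gabbr1 was the most abundant, at 269 ± 7.44 TMM-scaled TPM in CCI (SD, n = 3) and 285 ± 3.24 TMM-scaled TPM in SHAM (SD, n = 2), above every value of the next gene, Glrb. By mean over the 5 libraries Glrb, Abat, Slc6a9, Glra1, Slc12a2, Slc6a11 and Slc12a5 came next, each overlapping the one after it. The order was not the same in both groups. Abat averaged 148 in CCI, above Slc6a9 at 128 and Glra1 at 121, but 149.6 in SHAM, below Slc6a9 at 169 and Glra1 at 156. Slc12a2 averaged 109 ± 7.39 TMM-scaled TPM in CCI (SD, n = 3) and 127 ± 22.9 TMM-scaled TPM in SHAM (SD, n = 2) and Slc12a5 93.1 ± 19.7 TMM-scaled TPM in CCI (SD, n = 3) and 92.7 ± 9.07 TMM-scaled TPM in SHAM (SD, n = 2). Among the GABA-A subunits listed, Gabrg1 was highest at 61.5 ± 6.28 TMM-scaled TPM in CCI (SD, n = 3) and 64.3 ± 1.41 TMM-scaled TPM in SHAM (SD, n = 2), followed by Gabra3, Gabra2, Gabrb1, Gabra5 and Gabrb2 by mean over the 5 libraries. The lowest CCI value of Gabrg1, 56.0, was under the highest of Gabra3, 57.8, so their ranges overlapped. Gabra3 averaged above Gabra2 in CCI, at 50.2 and 43.9, and just below it in SHAM, at 47.5 and 48.2. The values of Gabra3 and Gabra2, and those of Gabrb1 and Gabra5, overlapped too, whereas those of Gabra5 and Gabrb2 did not. Gabrg3, Gabra4 and Gabrq lay lower, and Gabre and Gabrd were lowest in TMM-scaled TPM, from 0.351 to 1.25 in the CCI libraries and from 0.444 to 0.804 in the SHAM libraries. Gabbr2 averaged 41.7 ± 1.11 TMM-scaled TPM in CCI (SD, n = 3) and 38.9 ± 3.96 TMM-scaled TPM in SHAM (SD, n = 2), well below its partner Gabbr1 in every library.

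**Figure D5:**
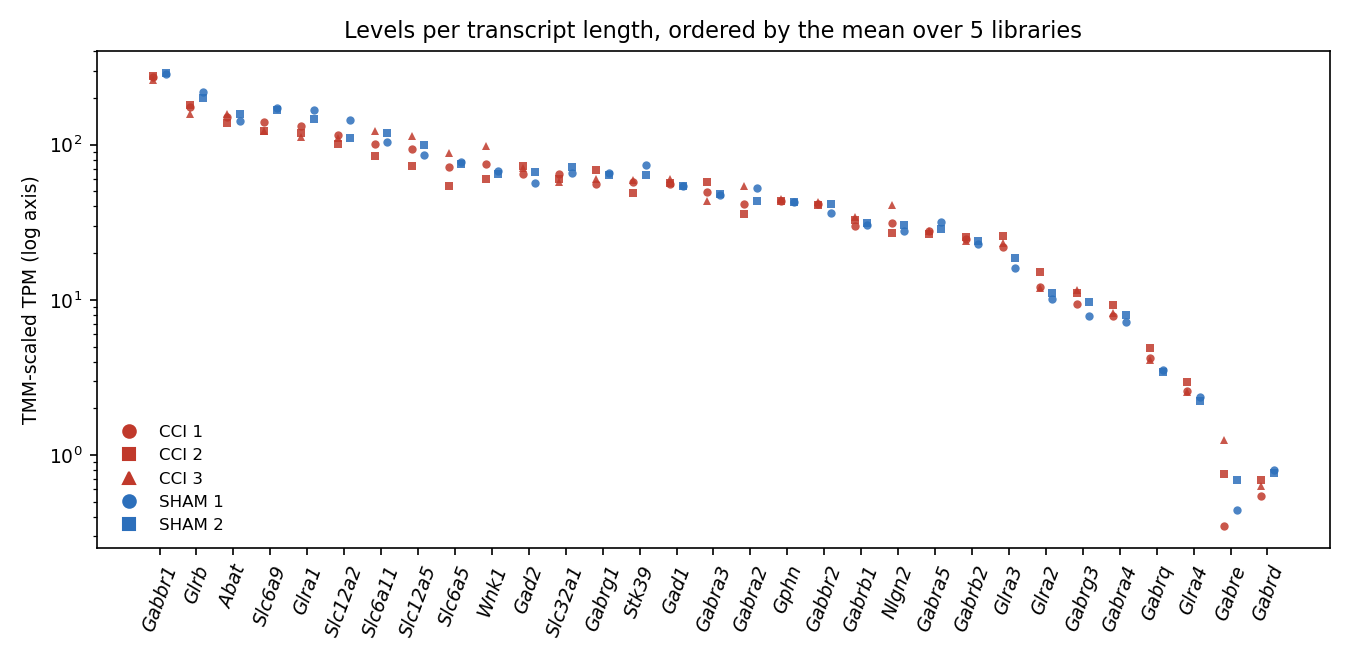
TMM-scaled TPM (log axis) of the 31 genes in each library, ordered by the mean over 5 libraries, with CCI libraries in red left of SHAM libraries in blue. Gabbr1 lies at 261 to 276 in the CCI libraries and 283 to 288 in the SHAM libraries, above every other gene.

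One order of the libraries recurred. In 7 of 31 members (22.6%) CCI 2 was the lowest and CCI 3 the highest of the 5 libraries, beside 6.27% of all tested genes. The 7 were Gabra2, Gphn, Nlgn2, Slc6a5, Slc6a11, Slc12a5 and Wnk1. Except in Gphn, the highest CCI library exceeded the lowest by 1.47 to 1.62 times, whereas the SHAM libraries differed by 1.03 to 1.21 times in the same genes. This order was picked after the values had been seen and is given without a test. CCI 3 is also the library with 16.0% ribosomal counts, and CCI 2 and CCI 3 are those high in Schwann cell and fibroblast markers; the part of either in the order was not tested. Across the 27 members with a mean of at least 10 CPM, the highest CCI library exceeded the lowest by a median of 1.16 times, close to the 1.19 times of all 9721 genes at that level.

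Lists of related genes are set beside the 2.85% of all tested genes called, a share at which a list of this size holds few calls or none. None of 25 inhibitory synapse partners passed, the nearest being Vasp (log2 fold change 0.38, SE 0.12, adjusted p = 0.176) and Shisa7, an auxiliary subunit of GABA-A receptors (log2 fold change 0.48, SE 0.21, adjusted p = 0.32). None of 14 GABA-B effector genes passed (Gnai3 0.30 and Kctd16 0.42 had the smallest p, with adjusted p = 0.207 and 0.215), and none of 26 other chloride and pH genes did (Car2 -0.32 and Car7 -0.77, adjusted p = 0.161 and 0.186). The median log2 fold changes of these lists were -0.03, 0.10 and -0.05.

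Of 20 genes of GABA and glycine metabolism and other carriers, 1 fell and none rose by edgeR's quasi-likelihood test. The gene that fell was Slc7a10, an exchanger of small neutral amino acids that include glycine and D-serine, at 78.9 ± 8.0 CPM in CCI (SD, n = 3) and 134 ± 19.2 CPM in SHAM (SD, n = 2) (log2 fold change -0.76, SE 0.13, adjusted p = 0.014). Its call was lost without SHAM 1 (adjusted p = 0.232) and without SHAM 2 (0.0541), and its counts were not whole numbers. Shmt1, a serine hydroxymethyltransferase that interconverts serine and glycine, had the largest estimate of the list, with no overlap between groups but no call (log2 fold change 1.25, SE 0.29, adjusted p = 0.0596). In this list 1 gene was called higher by the likelihood ratio test, by DESeq2, with library totals as the only scaling, with no filter on low counts, without CCI 1, and with CCI 2 and CCI 3 both left out. Of 15 tested genes in a list of Bdnf and KCC2 regulators, 2 rose. They were Shc1, an adaptor of receptor tyrosine kinases (log2 fold change 0.86, SE 0.16, adjusted p = 0.0229), and Prkcd, a protein kinase C (log2 fold change 0.60, SE 0.11, adjusted p = 0.0266). Neither was called with the mean level of Schwann cell markers or of pan-neuronal markers as a covariate. Both had counts that were not whole numbers, and both calls were lost without CCI 3, without SHAM 1 or without SHAM 2 (adjusted p = 0.0649, 0.169 and 0.270 for Shc1, and 0.0484, 0.241 and 0.277 for Prkcd, whose fold fell under 1.5 without CCI 3). For Bdnf, the neurotrophin studied as a signal that lowers KCC2, the result was no call (log2 fold change 0.30, SE 0.19, adjusted p = 0.463), as for its receptor gene Ntrk2 (log2 fold change 0.25, SE 0.14, adjusted p = 0.41).

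Of 11 tested genes of endozepines and neurosteroids, which tune GABA-A receptors, 1 rose. It was Tspo, a mitochondrial outer membrane protein that is widely used as a marker of activated microglia, at 19.8 ± 2.10 CPM in CCI (SD, n = 3) and 5.22 ± 1.53 CPM in SHAM (SD, n = 2) (log2 fold change 1.93, SE 0.21, adjusted p = 0.00163). Its adjusted p stayed under the threshold in each fit with a library left out, at 0.000391 to 0.0357, and the summed microglial markers given above were higher in every CCI library. Dbi, the precursor of endozepine peptides, was not called (log2 fold change -0.36, SE 0.13, adjusted p = 0.222).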

How the data were processed

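Estimated counts, with 1 row for each gene symbol, were deposited by the authors. The submitters' processing notes name kallisto 0.44.0 and rn6. A second deposited table is named TPM, but its column totals differ, so it is handled as a signal; per the labels, values were normalized by trimmed mean of M-values (TMM). For annotation and filters, the steps were not given in the sources used here. Of the tested genes, 18.2% had a count more than 0.01 from a whole number in at least 1 library (20.5% with no tolerance), as had 5 of the 31 members.

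Estimated counts were rounded. Genes passing filterByExpr (minimum count 10), 13478 in all, entered the fit in edgeR 4.0.16 under R 4.3.3 (TMM, robust glmQLFit, glmQLFTest, two-sided, 3 residual degrees of freedom), with no covariate. Each SE equals the absolute log2 fold change over the square root of F, and 95% intervals use the total degrees of freedom. CPM are TMM-scaled counts. Values cover counting error and library spread only as far as 3 and 2 libraries show them. On simulated counts for CCI against SHAM (13396 genes run), 32.8% of genes changed 1.5-fold, 80.6% of those changed 2-fold and 95.5% of those changed 4-fold were called, with 16 unchanged genes called. The changed genes were drawn from those with a mean of at least 1 CPM. Genes were simulated independently, so differences that many genes share within a library, as in CCI 3, were not imitated. No 2 libraries agreed within sampling noise (chi-square per degree of freedom of at least 19.7).

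The members and lists were chosen with earlier results of these data known. Per-library values were given, by rule, for called members, the 2 smallest p of each role and 12 set members, and others were added after their values were seen. Of other lists, called genes or the 2 with the smallest p were named, with Bdnf, Ntrk2, Dbi, Shmt1, Pdyn and single astrocyte markers added after their values were seen. Alternative fits used DESeq2 1.42.0, edgeR's likelihood ratio test, limma-voom (limma 3.58.1), limma on log2 of the deposited TPM plus 0.5 or 0.1, other scalings and filters, left-out libraries or ribosomal rows, and marker levels as covariates. All 31 symbols matched the GRCr8 gene table, which was used only for the order of neighbouring genes. Some related subunit and transporter genes are not reported here. Figures were drawn with matplotlib 3.10.9.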

Additional observations from a re-analysis of the deposited data

How the results depend on the processing

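No member was called under any alternative that was run. Gabrd had no value with a minimum mean of 1 CPM. With no minimum fold, an adjusted p of at most 0.05 was reached by Slc6a9 with the likelihood ratio test, with DESeq2 and without CCI 1, and by Glra1 with DESeq2 only. Of 588 single-gene values under alternatives, 566 kept their sign. The others, none of them called, turned sign as follows, and the cause was not tested. With CCI 2 and CCI 3 both left out, with the Schwann cell covariate and with the pan-neuronal covariate, the log2 fold change was -0.063, -0.055 and -0.073 for Gabrb1, -0.72, -0.80 and -0.97 for Gabre, and -0.0097, -0.0045 and -0.0087 for Gphn. With the pan-neuronal covariate it was -0.066 for Nlgn2 and -0.038 for Wnk1. With each library left out in turn it ran from -0.053 to 0.15 for Gabra3, -0.12 to 0.041 for Abat, -0.29 to 0.049 for Slc6a5, -0.18 to 0.13 for Slc12a5, -0.051 to 0.80 for Gabre, -0.0060 to 0.019 for Gphn, -0.015 to 0.30 for Nlgn2, -0.0048 to 0.34 for Wnk1 and -0.028 to 0.17 for Gabbr2. The Slc12a2 to Slc12a5 difference ran from -0.48 to 0.088. The members' median log2 fold change ran from -0.05 to 0.05 with libraries left out and was -0.062 with the pan-neuronal covariate. The number of all genes called was 646 with the likelihood ratio test, 614 with DESeq2, 171 with the Schwann cell covariate, 130 with the pan-neuronal covariate, and 61 to 763 with libraries left out. Leaving out a SHAM library leaves 1, which is assumed to vary like the CCI libraries. Covariate fits have 2 residual degrees of freedom. No paired analysis was possible because no label matches a CCI library with a SHAM library. Gabrd, Gabre and Glra4 had fewer than 100 counts per library and intervals that reach past 1.5-fold; the part of depth in their width was not tested.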
